A study of Mus musculus with 4 samples.

Results

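The collagen genes were examined in muscle stem cells (MuSCs) of mouse plantaris muscle, the muscle that takes over load when the Achilles tendon is cut (tenotomy). Members were all protein-coding genes whose symbol is Col, a number, the letter a and a number, and 39 of the 19353 genes counted met this rule. The cells came from Pax7-CreERT2:Rosa-YFP mice, in which tamoxifen activates a Cre recombinase made under the control of Pax7 and the recombined cells carry YFP. Each library was made by CEL-Seq2 from a tube of 100 YFP-sorted cells, taken 4 days after sham surgery (sham, 2 libraries) or tenotomy (overloaded, 2 libraries), and the genotype and YFP sort were common to both groups. Neither the age of the mice nor whether each library had its own mouse is given in the sources used here, so p-values measure only the spread between these samples, which may be technical. The sham libraries held 269683 and 260488 unique molecular identifiers (UMIs, each a distinct captured molecule), and the overloaded libraries held 387955 and 483528. All 11 MuSC markers of the marker list were counted, with Pax7 at 118 and 107 UMIs in the sham and 108 and 137 UMIs in the overloaded libraries. Relative to the UMIs of the tested genes after TMM scaling, Pax7 was lower (log2 fold change -0.84, adjusted p 6.4e-04 by edgeR). With library sizes alone, without TMM, its log2 fold change was -0.56.

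Collagens are trimers of chains wound into a triple helix, and each chain is encoded by its own gene. Fibrillar collagens (types I, II, III, V, XI, XXIV and XXVII) build the tensile fibrils of the interstitial matrix, whereas type IV forms the network of the basement membrane under which MuSCs reside, and type VI forms beaded filaments between fibrils and basement membrane. MuSCs make part of their own niche, and type V collagen is known to help to keep them quiescent through the calcitonin receptor, while type VI collagen is known to support their self-renewal.

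Of the 39 collagen genes, 19 had enough UMIs to be tested and 20 did not. Levels are given in CPM, the UMIs of a gene as a share of the UMIs of the tested genes in its library, after TMM scaling. CEL-Seq2 counts the 3' ends of transcripts, so a level is not divided by gene length, and levels are set beside each other between libraries, not between genes. Of the tested collagen genes, 6 were higher and 8 were lower in overloaded than in sham MuSCs at an adjusted p under 0.1 (quasi-likelihood test of edgeR, Benjamini-Hochberg adjusted over all 7228 tested genes), and 5 did not pass the test. Of the 6 higher genes, Col6a3, Col8a1 and Col26a1 met the filter on low counts in both overloaded libraries but not in both sham libraries. A filter passed in this way favors genes that are higher there, so the count of higher genes supports no direction. Among all tested genes, 25.8% were called higher and 26.3% lower, so that calls in both directions were common among all genes. The median log2 fold change of the 19 collagen genes was -0.28, against 0.05 over all tested genes. The values of the overloaded libraries lay above both sham libraries for 6 collagen genes and below both for 11, where 37.5% and 35.4% of all tested genes did so. Collagen transcripts together took 0.703% and 0.656% of all UMIs in the sham libraries and 0.724% and 0.676% in the overloaded libraries, and these ranges overlapped.

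The scale bears on most of these directions, because overloaded tubes gave 3880 and 4835 UMIs for each cell sorted and sham tubes gave 2697 and 2605. With library sizes alone, the median log2 fold change of all tested genes was 0.33, and for UMIs per tube, with no scaling, it was 1.01. The median of the collagen genes turned from -0.28 to 0.68 per tube, and it turned to 0.41 with abundance offsets, a scaling by which the fold change no longer follows the abundance of a gene. Per tube, 12 collagen genes were called higher and 1 lower, where 62% and 4.58% of all genes were. With the offsets, 10 were called higher and 4 lower, where 24% and 23.5% of all genes were. Library sizes alone gave 6 and 5 (37.3% and 18.7% of all genes), DESeq2 gave 5 and 5 (9.34% and 11.7%), and DESeq2 on the filtered genes gave 3 and 5 (10.5% and 14.5%). Without sham 1 there were 6 and 5 (21.7% and 22.7% of all genes), without sham 2 there were 6 and 5 (20.8% and 21.7%), without overloaded 1 there were 6 and 7 (23.5% and 24.1%) and without overloaded 2 there were 5 and 7 (20.3% and 22.2%). Only Col1a2, Col6a3 and Col8a1 (higher) and Col15a1 (lower) kept their direction and their call in all 18 alternatives tried, and for Col6a3 and Col8a1, whose test rests on the filter passed through the overloaded libraries, this is no sign of stability. Per tube the log2 fold changes of the genes called higher other than Col6a3 were 2.79 for Col1a2, 3.12 for Col8a1, 2.01 for Col12a1, 1.94 for Col18a1 and 2.25 for Col26a1. For Col6a3 the log2 fold change ranged from 3.43 to 4.79 over the 18 alternatives. In the GENCODE annotation of GRCm38, Col1a2 lies at chr6:4504814-4541544 (plus strand, 52 exons in its longest transcript), Col6a3 at chr1:90765923-90843971 (minus strand, 44 exons), Col8a1 at chr16:57624258-57754737 (minus strand, 4 exons) and Col15a1 at chr4:47208161-47313167 (plus strand, 40 exons). In the plots and sentences that follow, a log2 fold change is overloaded minus sham on the TMM scale unless another scale is named. In bulk samples such as these, fewer cells that express a gene and less of its RNA per cell cannot be told apart.

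**Figure D1:**
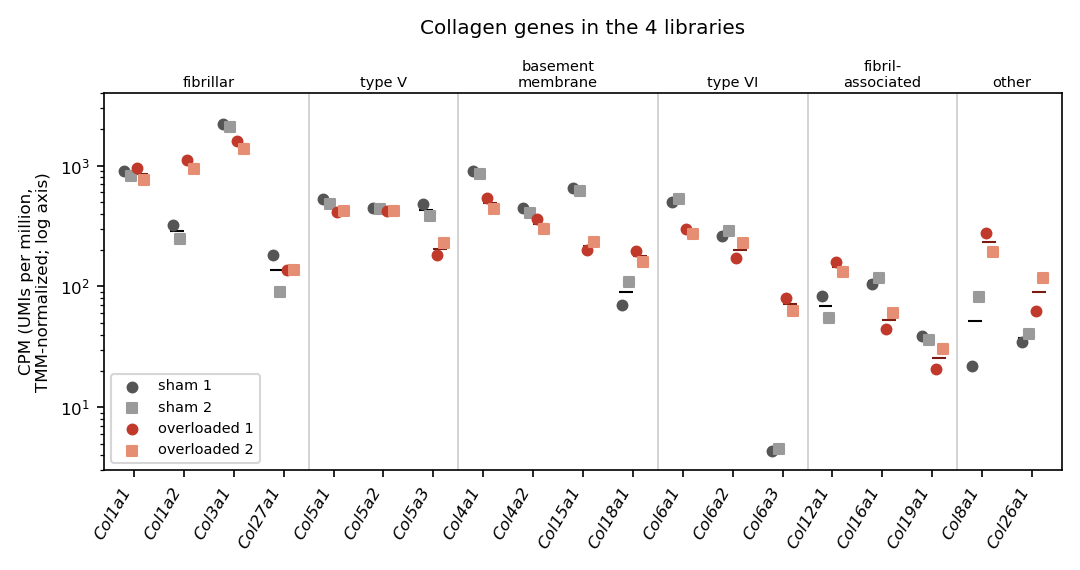
Level of each tested collagen gene (CPM, log axis) in the 2 sham libraries (gray) and the 2 overloaded libraries (red), grouped by collagen class, with short lines at the group means. Col1a2, Col6a3 and Col8a1 are higher in both overloaded libraries than in both sham libraries, Col15a1 is lower in both, and Col1a1 and Col27a1 overlap.

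Type I collagen, the main fibrillar collagen of tendon and interstitial matrix, is built of chains from Col1a1 and Col1a2. Col1a2 was at 322 and 249 CPM in the sham libraries and at 1108 and 942 CPM in the overloaded libraries. The groups were far apart, and Col1a2 was the 828th and 1146th most often counted gene in the sham libraries but the 18th and 19th in the overloaded ones. It rose 3.57-fold (log2 fold change 1.84, SE 0.19, adjusted p 1.03e-06 by edgeR), and its log2 fold change was 2.73 with the abundance offsets and 2.79 per tube. Col1a1 was at 897 and 820 CPM in the sham libraries and at 946 and 763 CPM in the overloaded libraries, so that the groups overlapped. Its log2 fold change of -0.01 (SE 0.16, 95% interval -0.36 to 0.34, adjusted p 0.97 by edgeR) did not pass the test, but it was 0.94 per tube and 0.96 with the abundance offsets, where it was called higher.

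The transcripts of both type I chains can be compared within a library, where a scaling common to all genes has no part. Col1a2 took 26.4% (95% exact binomial interval 21.4 to 32.0) and 23.3% (18.1 to 29.2) of the type I UMIs in the sham libraries. It took 53.9% (50.4 to 57.4) and 55.2% (51.8 to 58.6) in the overloaded libraries. The share was 29.7 percentage points higher in the overloaded group, at 54.6% ± 0.920 (SD, n = 2) against 24.9% ± 2.21 (SD, n = 2). An exact two-sided permutation test of 2 libraries against 2 gave p = 0.33, the smallest it can give. These are shares of captured 3' ends with intervals for counting error only, and they are not proportions of chains in the protein.

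Col3a1, the chain of type III collagen, which forms thinner fibrils with type I, was the most often counted collagen gene in all 4 libraries, with 508, 461, 618 and 683 UMIs. Its level was 2211 and 2088 CPM in the sham libraries and 1607 and 1383 CPM in the overloaded libraries. Both overloaded values lay below both sham values, and the log2 fold change was -0.53 (SE 0.16, adjusted p 0.013 by edgeR), but it turned to 0.42 per tube and to 0.72 with the abundance offsets, where Col3a1 was called higher. Its call was also lost with library sizes alone (adjusted p 0.15) and without sham 1 (0.22) or sham 2 (0.13). Col1a1 was counted at 0.406 and 0.393 UMIs per Col3a1 UMI in the sham libraries and at 0.589 and 0.552 in the overloaded libraries. For Col1a2 this ratio went from 0.146 and 0.119 to 0.689 and 0.681, and a scaling factor common to all genes of a library does not alter these ratios. Col27a1, a minor fibrillar chain, had 42 and 20 UMIs in sham and 53 and 68 in overloaded libraries, and its log2 fold change of 0.0032 (SE 0.27, adjusted p 0.99 by edgeR) did not pass the test. Per tube Col27a1 was called higher, at 0.96, and its direction turned to -0.0026 with the abundance offsets and to -0.41 without sham 2. The type II chain gene Col2a1 had 1 UMI in all, Col11a1 had 1 and Col11a2 had 8.

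**Figure D2:**
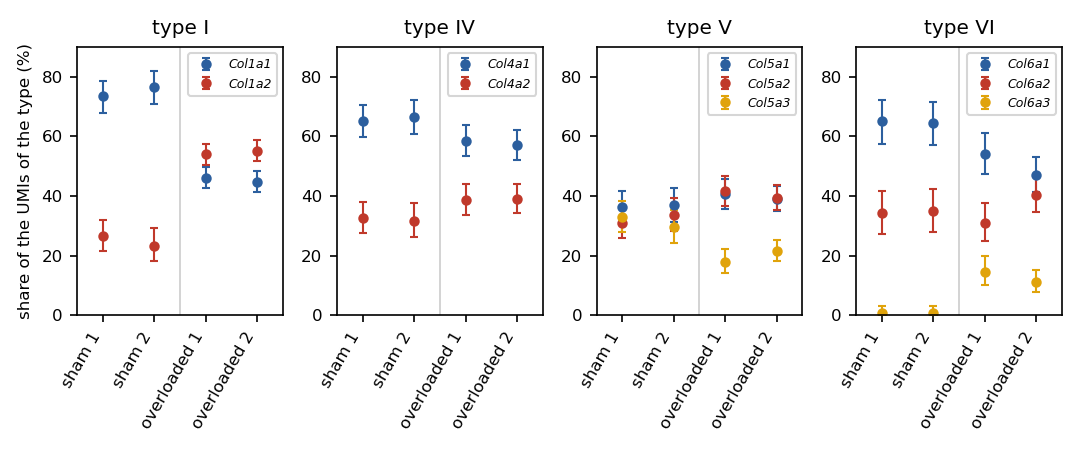
Share of each chain gene in the UMIs of its collagen type (%) in each library, with 95% exact binomial intervals for counting error. In type I the Col1a2 share goes from 26.4% and 23.3% in sham to 53.9% and 55.2% in overloaded libraries, in type V the Col5a3 share is lower in both overloaded libraries, and in type VI the Col6a3 share is near 0 in sham and at 14.5% and 11.0% in overloaded libraries.

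Type V collagen is incorporated into type I fibrils, where it limits their diameter. The paper followed Col5a1, Col5a3 and Col6a1 as Notch targets by qRT-PCR on separate samples. At the same time after surgery as here, it reported their expression as comparable to that of quiescent MuSCs. In the libraries used here, Col5a3 and Col6a1 were called lower on the TMM scale, whereas Col5a1 was not called. The cause of this difference was not tested. Of the 3 type V chain genes, Col5a3 was at 479 and 385 CPM in the sham libraries and at 182 and 229 CPM in the overloaded libraries. The groups did not overlap, and Col5a3 fell 2.09-fold (log2 fold change -1.06, SE 0.19, adjusted p 2.4e-04 by edgeR), with its call lost only per tube, at -0.09. Col5a1 was at 527 and 480 CPM in sham and at 411 and 417 CPM in overloaded libraries (log2 fold change -0.28, SE 0.16, adjusted p 0.17 by edgeR). Col5a2 was at 448 and 439.4 CPM in sham and at 421 and 421 CPM in overloaded libraries (log2 fold change -0.08, 95% interval -0.42 to 0.27, adjusted p 0.73 by edgeR). Neither Col5a1 nor Col5a2 passed the test, and both turned to higher, and were called so, per tube (0.68 and 0.89) and with the abundance offsets (0.41 and 0.59). Col5a2 also turned to 0.20 with library sizes alone. A locus of unresolved coding status, Gm38211, lies within Col5a2 on the same strand and has its own 86, 84, 81 and 75 UMIs, so the division of reads between them is uncertain.

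Within type V, the share of Col5a3 was 32.9% (95% exact binomial interval 27.9 to 38.3) and 29.5% (24.3 to 35.1) in the sham libraries. In the overloaded libraries it was 17.9% (14.3 to 22.1) and 21.4% (18.0 to 25.2). The share was lower by 11.5 percentage points in the overloaded group, with p = 0.33 in the exact two-sided permutation test. Col5a2 went from 30.8% and 33.7% to 41.5% and 39.5% of the type V UMIs, and Col5a1 from 36.2% and 36.8% to 40.5% and 39.1%.

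The network of the basement membrane is made of type IV collagen, and Col4a1 and Col4a2 are a pair of genes that start next to each other on opposite strands of chromosome 8. Col4a1 was at 897 and 847 CPM in the sham libraries and at 543 and 439.4 CPM in the overloaded libraries. The groups were apart, and the log2 fold change was -0.83 (SE 0.16, adjusted p 6.4e-04 by edgeR), but it turned to 0.12 per tube and to 0.035 with the abundance offsets. Col4a2 was at 448 and 403 CPM in sham and at 359 and 300 CPM in overloaded libraries, which gave a log2 fold change of -0.38 (SE 0.17, adjusted p 0.085 by edgeR). This was close to the threshold: the call was lost under 11 of the 18 alternatives, and the direction turned under 2, to 0.57 per tube and to 0.20 with the abundance offsets. The antisense gene Gm15418 covers the 3' end of Col4a1 in the annotation and has no counts of its own here. Since the strand setting of the counting is not stated, reads of Col4a1 and Gm15418 cannot be told apart.

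The share of Col4a2 in the type IV UMIs was 32.6% and 31.7% in the sham libraries and 38.7% and 39.1% in the overloaded libraries, 6.72 percentage points higher. The share of Col4a1 was 65.2% and 66.5% in sham and 58.5% and 57.3% in overloaded libraries, and for both genes the exact two-sided permutation test gave p = 0.33. The other type IV genes were rare, with 24 UMIs of Col4a5, 8 of Col4a4, 3 of Col4a6 and 1 of Col4a3 over the 4 libraries.

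Col15a1 and Col18a1 encode related collagens of the basement membrane zone that carry glycosaminoglycan side chains, and Col18a1 is the source of endostatin. Col15a1 was at 657 and 616 CPM in the sham libraries and at 200 and 233 CPM in the overloaded libraries. The groups were well apart, and Col15a1 fell 2.92-fold (log2 fold change -1.55, SE 0.17, adjusted p 2.3e-06 by edgeR), a fall that kept its direction and call under every alternative, from -1.67 to -0.58. Col18a1 was at 69.6 and 109 CPM in the sham libraries and at 195 and 160 CPM in the overloaded libraries. It rose 1.98-fold (log2 fold change 0.98, SE 0.26, adjusted p 0.0062 by edgeR), with the call lost only in DESeq2 run on the filtered genes (adjusted p 0.104). The 3' end of Col18a1 is overlapped by Slc19a1 on the opposite strand, which had 2, 4, 8 and 14 UMIs. Together, the library values moved in opposite directions: Col18a1 had 0.106 and 0.176 UMIs per Col15a1 UMI in the sham libraries and 0.974 and 0.687 in the overloaded libraries. Col7a1, the chain of anchoring fibrils, had 5 UMIs over the 4 libraries.

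Type VI collagen is assembled from a chain of each of Col6a1, Col6a2 and a further gene, usually Col6a3. Col6a3 had 1 and 1 UMIs in the sham libraries and 31 and 31 in the overloaded libraries, equal to 4.35 and 4.53 CPM against 80.6 and 62.8 CPM. Its ratio of overloaded to sham was 15.9, with a 95% exact interval of 4.22 to 134 for counting error on the 2 sham UMIs, and the adjusted p was 1.2e-04 by edgeR. Col6a1 was at 496 and 525 CPM in sham and at 302 and 269 CPM in overloaded libraries (log2 fold change -0.84, SE 0.17, adjusted p 6.7e-04 by edgeR). Both overloaded values of Col6a1 lay below both sham values, but its log2 fold change turned to 0.11 per tube and its call was lost with the abundance offsets (-0.24). As given above for the Notch targets, the paper reported Col6a1 as comparable to quiescent MuSCs at this time. Col6a2 was at 261 and 285 CPM in sham and at 172 and 231 CPM in overloaded libraries (log2 fold change -0.42, SE 0.20, adjusted p 0.093 by edgeR). That call was lost under 13 of the 18 alternatives and the direction turned to 0.55 per tube.

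In shares of the type VI UMIs, Col6a3 went from 0.571% (95% exact binomial interval 0.0145 to 3.14) and 0.556% (0.0141 to 3.06) in sham to 14.5% (10.1 to 19.9) and 11.0% (7.59 to 15.2) in overloaded libraries. Col6a1 went from 65.1% and 64.4% to 54.2% and 47.2%, whereas Col6a2 overlapped between the groups, at 34.3% and 35.0% against 30.8% and 40.4%. The exact two-sided permutation test gave p = 0.33 for Col6a3 and Col6a1, and p = 1 for Col6a2. The alternative chain genes Col6a5 and Col6a6 had 1 and 4 UMIs in all, which is too few for a comparison. Col6a1 and Col6a2 are neighbors on the same strand of chromosome 10, with 85161 bases between them, and Col6a3 lies on chromosome 1.

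Of the fibril-associated collagens, which sit on the surface of larger fibrils, 3 were tested. Col12a1, a chain known from tendon and other loaded tissues, was at 82.7 and 54.4 CPM in the sham libraries and at 159 and 132 CPM in the overloaded libraries. It rose 2.09-fold (log2 fold change 1.06, SE 0.29, adjusted p 0.0066 by edgeR), with the call lost only in DESeq2 run on the filtered genes (adjusted p 0.110). Col16a1 was at 104 and 118 CPM in sham and at 44.2 and 60.8 CPM in overloaded libraries. It fell 2.08-fold (log2 fold change -1.05, SE 0.32, adjusted p 0.013 by edgeR), but the call was lost per tube (-0.09) and in DESeq2 on all genes (adjusted p 0.12) and on the filtered genes (0.14). Col19a1, which passed the filter only through the sham libraries, with 9, 8, 8 and 15 UMIs, had a log2 fold change of -0.52 (SE 0.43, adjusted p 0.36 by edgeR), which turned to 0.43 per tube and was called lower with the offsets (-1.02). Col14a1 and Col20a1 had 3 and 6 UMIs, and the type IX chain genes Col9a2 and Col9a3 had 1 and 3.

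Col8a1 encodes a short-chain collagen that forms open networks in vessel walls and in the membrane under the corneal endothelium. It had 5 and 18 UMIs in the sham libraries and 106 and 96 in the overloaded libraries, equal to 21.8 and 81.5 CPM against 276 and 194 CPM. The sham libraries differed among themselves, but both lay below both overloaded libraries, and Col8a1 rose 4.52-fold (log2 fold change 2.18, SE 0.35, adjusted p 1.2e-04 by edgeR). Without sham 1 the log2 fold change was 1.51 and without sham 2 it was 3.39, so 1 library moves its size. Col26a1, whose product is less well characterized, had 8 and 9 UMIs in sham and 24 and 58 in overloaded libraries. Its log2 fold change was 1.28 (SE 0.41, adjusted p 0.019 by edgeR), and without overloaded 2 it was 0.72 with the call lost (adjusted p 0.27), as it was in DESeq2 on all genes (adjusted p 0.14) and on the filtered genes (0.16).

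**Figure D3:**
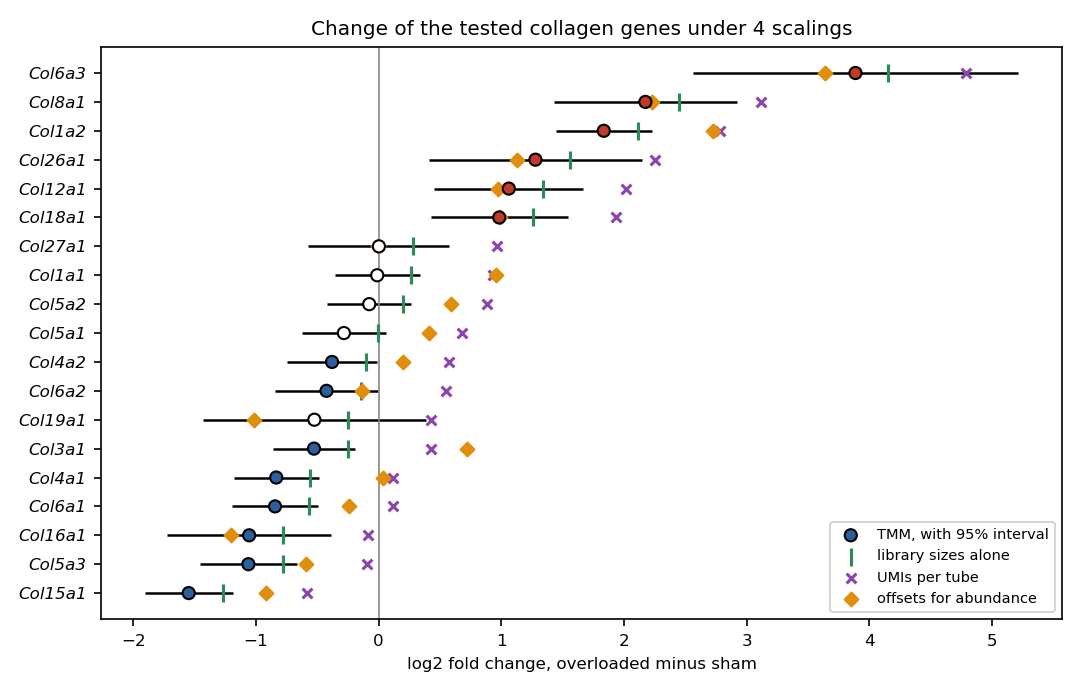
Log2 fold change (overloaded minus sham) of the 19 tested collagen genes with TMM scaling (circles with 95% intervals, red called higher, blue called lower, white not called), and with library sizes alone, UMIs per tube and offsets for abundance. The 6 genes at the top stay above 0 on every scale and Col15a1, Col5a3 and Col16a1 stay below 0, whereas the other 10 change sign on at least 1 scale.

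Among the 20 collagen genes that could not be tested, 17 had fewer than 10 UMIs over the 4 libraries. The transmembrane collagen gene Col13a1 had 0 UMIs in both sham libraries and 3 and 7 in the overloaded libraries. Set against a floor of 3 counts over the sham group, its overloaded UMIs were 1.71-fold higher. This floor covers counting error in the sham group only, and the counting error of the overloaded UMIs could lower the ratio. Col17a1, the chain of hemidesmosomes, had 3, 3, 4 and 12 UMIs, and Col4a5 had 2, 4, 7 and 11. A count of 3 was worth 13.1 and 13.6 CPM in the sham libraries and 7.80 and 6.08 CPM in the overloaded libraries, so that low levels were seen less well in sham.

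The promoter windows, 250 bases before the RefSeq start on build GRCm38.p6, are shown for the called genes with the largest rises and falls whose window meets no annotated exon. They let the start regions of collagen genes that moved in opposite directions be read side by side. Capitals mark matches to GGGCGG (the GC box) or CCAAT on either strand, also where such matches overlap, and each sequence runs 5' to 3' on the strand of its gene.
Col6a3, higher, chr1:90843972-90844221, minus strand: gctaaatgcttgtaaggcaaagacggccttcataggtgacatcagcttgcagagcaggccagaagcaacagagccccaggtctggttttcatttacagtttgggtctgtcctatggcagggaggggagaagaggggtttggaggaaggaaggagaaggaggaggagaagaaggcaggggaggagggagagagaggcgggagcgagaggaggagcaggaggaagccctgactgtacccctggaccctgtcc
Col8a1, higher, chr16:57754738-57754987, minus strand: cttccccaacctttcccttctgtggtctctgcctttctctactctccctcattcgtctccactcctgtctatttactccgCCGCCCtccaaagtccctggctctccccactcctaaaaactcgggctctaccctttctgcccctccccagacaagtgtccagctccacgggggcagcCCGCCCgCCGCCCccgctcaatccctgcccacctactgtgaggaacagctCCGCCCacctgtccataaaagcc
Col15a1, lower, chr4:47207762-47208011, plus strand: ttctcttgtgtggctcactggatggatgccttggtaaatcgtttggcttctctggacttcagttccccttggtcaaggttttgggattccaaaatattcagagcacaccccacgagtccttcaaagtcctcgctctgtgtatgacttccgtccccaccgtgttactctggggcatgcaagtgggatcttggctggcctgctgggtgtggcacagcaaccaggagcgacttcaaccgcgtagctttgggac
Col5a3, lower, chr9:20815068-20815317, minus strand: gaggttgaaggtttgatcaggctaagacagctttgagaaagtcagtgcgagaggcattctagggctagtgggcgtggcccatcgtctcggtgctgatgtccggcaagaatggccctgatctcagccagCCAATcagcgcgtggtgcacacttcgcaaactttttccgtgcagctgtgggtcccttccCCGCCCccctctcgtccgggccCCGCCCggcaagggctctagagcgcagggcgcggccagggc

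The Col8a1 window holds 4 matches to GGGCGG, and the Col5a3 window holds 2 of these and 1 CCAAT. The Col6a3 and Col15a1 windows hold none of the 4 motifs searched, which were TATAAA for the TATA box, CCAAT for the CCAAT box, GGGCGG for the GC box and, as a site form of the Notch effector Rbpj, GTGGGAA, with both strands searched. Of the 19 tested collagen genes, 15 had a promoter window in the RefSeq table. The 4 genes called higher that had one gave 5 windows, with 2 for Col18a1, and the 8 genes called lower gave 9, with 2 that overlap for Col6a2. GGGCGG was found in 3 of 5 windows of genes called higher (Col1a2, Col8a1 and 1 of Col18a1) and in 5 of 9 of genes called lower, beside 32.7% of 32851 promoters. CCAAT was found in 2 of 5 and 4 of 9, beside 33.8%, and TATAAA in 0 of 5 and 1 of 9 (Col3a1), beside 12.4%. GTGGGAA was found in 0 of 5 and 0 of 9, beside 5.42%. A match is a run of letters and not a bound site, and a missing match says only that these letters are not in the window.

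Genes that act on collagen chains were given by lists of the steps of their maturation, and their counts stand beside 25.8% higher and 26.3% lower of all tested genes. Of 10 tested genes for prolyl and lysyl modification, 3 were higher, 2 lower and 5 not called, with a median log2 fold change of 0.07. The higher genes P3h4 and Crtap, and Fkbp14, Pcolce, Adamts2 and Adamts14 of the lists that follow, met the filter on low counts in both overloaded but not in both sham libraries. This favors genes that are higher there, so counts of higher genes that include them support no direction. Plod2, a lysyl hydroxylase that acts on the ends of fibrillar chains, had 17 and 18 UMIs in sham and 83 and 106 in overloaded libraries and rose by 1.47 on the log2 scale (SE 0.24, adjusted p 1.3e-04 by edgeR). P3h4, a partner of the enzymes that modify chains in the endoplasmic reticulum, had 6, 5, 23 and 32 UMIs and rose by 1.34 on the log2 scale (adjusted p 0.017 by edgeR), with the call lost in DESeq2. Crtap, a partner of a prolyl 3-hydroxylase, had 11, 5, 33 and 42 UMIs and a log2 fold change of 1.26 (adjusted p 0.015 by edgeR), with the call lost in DESeq2 and without sham 2. The prolyl hydroxylase subunit P4ha2 (32, 32, 25 and 39 UMIs) had a log2 fold change of -0.96 (adjusted p 0.0077 by edgeR), and its call was lost per tube (0.00) and in DESeq2. Of 12 genes for chaperones and export, 2 were higher, 4 lower and 6 not called, with a median of 0.16. Sparc, a secreted glycoprotein that binds fibrillar and type IV collagens, had 429, 419, 479 and 502 UMIs, and its log2 fold change of -0.74 (SE 0.16, adjusted p 0.0014 by edgeR) turned to 0.21 per tube and to 0.43 with the offsets. Creb3l1, a transcription factor of secretory cells, had 20, 10, 41 and 75 UMIs and a log2 fold change of 0.97 (adjusted p 0.022 by edgeR), with the call lost in DESeq2, after thinning and without sham 2 or overloaded 2. The prolyl isomerases Fkbp14 (5, 4, 12 and 26 UMIs, log2 fold change 1.09) and Fkbp7 (27, 30, 27 and 44 UMIs, -0.65) each lost their call under 10 of the 18 alternatives, and Fkbp7 turned to 0.32 per tube.

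Of 5 genes for the removal of propeptides, 3 were higher, 1 lower and 1 not called. Pcolce, which enhances the cleavage of the C-terminal propeptide of fibrillar collagens, had 4 and 5 UMIs in sham and 33 and 45 in overloaded libraries and rose by 2.13 on the log2 scale (SE 0.42, adjusted p 6.7e-04 by edgeR). Adamts14 (4, 2, 17 and 19 UMIs) and Adamts2 (8, 8, 33 and 41 UMIs), proteases of the N-terminal propeptide, were called higher (adjusted p 0.019 and 0.012 by edgeR), and both lost their call in DESeq2. The call of Adamts14 was also lost with the offsets and without sham 2. Bmp1, the protease that Pcolce assists, had 61, 49, 60 and 59 UMIs and a log2 fold change of -0.84 (adjusted p 0.0045 by edgeR), which turned to 0.11 per tube. Of 5 cross-linking genes, 1 was higher, 2 lower and 2 not called. Lox, a lysyl oxidase, had 18, 22, 68 and 66 UMIs and rose by 0.79 on the log2 scale (adjusted p 0.025 by edgeR), with the call lost in DESeq2 and without sham 1 or overloaded 1. Loxl2, a relative of Lox that acts on type IV collagen, had 60, 81, 42 and 48 UMIs and fell by 1.61 on the log2 scale (adjusted p 2.4e-05 by edgeR), also under all 18 alternatives. Tgm2, a transglutaminase, had 49, 50, 35 and 35 UMIs and fell by 1.45 on the log2 scale (SE 0.24, adjusted p 1.1e-04 by edgeR), with the call lost only per tube, at -0.50.

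**Figure D4:**
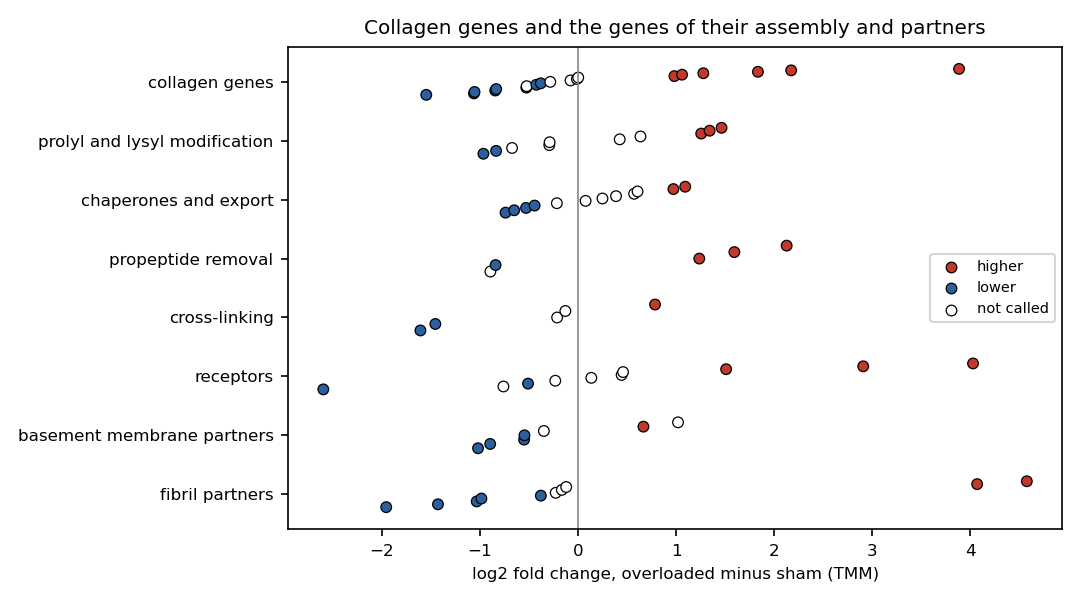
Log2 fold change (overloaded minus sham, TMM scaling) of the tested collagen genes and of tested genes of their modification, export, processing, cross-linking, reception and partners, one point a gene, red called higher, blue called lower, white not called. In the lists for propeptide removal and cross-linking, Pcolce (2.13) and Loxl2 (-1.61) lie at the ends, and Postn, with no UMI in sham, is left out.

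Markers of other cell types that make collagen were counted in the same libraries, and the counts of those called stand beside 25.8% higher and 26.3% lower of all tested genes. The 14 markers of fibroblasts and fibro-adipogenic progenitors summed to 2329 and 2279 CPM in the sham libraries and to 1331 and 1332 CPM in the overloaded libraries, with Gsn the most abundant over the 4 libraries. Gsn, Dpt and Dcn made up most of each of these sums, so the lower sums describe mainly these genes. Clec3b was not among the genes counted, and the defining marker Pdgfra had 0, 0, 2 and 0 UMIs. Of the 5 of these markers that were tested, 2 were higher (Ly6a, with 1, 0, 22 and 41 UMIs, and Fbln1) and 3 lower. Dpt fell by 1.43 on the log2 scale and kept its call under all 18 alternatives, Gsn fell by 1.09 with the call lost per tube and with the offsets, and Dcn had a log2 fold change of -0.38, whose call was lost under 12 alternatives and which turned to 0.58 per tube and to 0.16 with the offsets. Of the untested fibroblast markers, Mfap5 (0, 1, 9 and 4 UMIs) and Smoc2 (0, 1, 6 and 4) had a higher CPM in both overloaded than in both sham libraries. Lum (8, 6, 8 and 13 UMIs) had a lower CPM in both. Pdgfra, Pi16, Dpep1, Cxcl14 and Osr1 overlapped between the groups. The higher markers Ly6a and Fbln1, and Scx, Lyz2, Rgs5 and Myh4 of the lists that follow, met the filter in both overloaded but not in both sham libraries. Tek met it in both sham but not in both overloaded libraries. The filter favored the directions of these markers, which therefore support no change. The 8 tenocyte markers summed to 8.71 and 27.2 CPM in sham and to 169 and 128 CPM in overloaded libraries, with Scx the most abundant (1, 2, 40 and 61 UMIs), and no other marker reached the filter. Tnmd, Fmod, Thbs4, Comp and Chad were at 0 in both sham libraries and in overloaded 2, with 1, 7, 14, 1 and 1 UMIs in overloaded 1. Mkx had 1, 4, 1 and 2 UMIs, and Kera was not among the genes counted.

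The 9 leukocyte markers summed to 8.71, 27.2, 117 and 233 CPM, with Lyz2 the most abundant (0, 0, 17 and 38 UMIs) and Tyrobp, Fcer1g, Csf1r, Adgre1 and C1qa also at 0 in sham. The 8 mural cell markers summed to 1532, 1459, 1586 and 1693 CPM, with Acta2 the most abundant over the 4 libraries and Myh11 at 0 in sham, and 2 of 5 tested were higher and 2 lower. The 8 myofiber markers summed to 1606, 892, 3169 and 2851 CPM, with Acta1 the most abundant over the 4 libraries and Myh1 and Myh2 at 0 in sham, and all 6 tested were higher, beside 25.8% of all tested genes. Acta1 and Ckm lost their call without sham 2. The 8 endothelial markers summed to 126, 90.6, 119.6 and 132 CPM, with Tek the most abundant over the 4 libraries and Cldn5 at 0 in sham, and 1 of 2 tested was lower. The lower gene was Tek, and Flt1, the other tested gene, overlapped between the groups. Among the untested endothelial markers, the CPM of Cdh5 (3, 1, 14 and 11 UMIs), Kdr (1, 0, 2 and 7), Esam (2, 0, 5 and 8) and Cldn5 (0, 0, 1 and 1) was higher in both overloaded than in both sham libraries. Pecam1 and Emcn overlapped. Of all tested genes, 37.5% were likewise higher in both overloaded libraries. These counts are low, and 1 UMI was worth 4.35 and 4.53 CPM in sham against 2.60 and 2.03 CPM in overloaded libraries, so they show no direction. The MuSC markers summed to 7282, 6324, 4899 and 4317 CPM, with Sdc4 the most abundant over the 4 libraries, and 2 of 11 were higher and 7 lower, beside 25.8% and 26.3% of all tested genes. The lower call of Pax7 was lost with the offsets (-0.25) and turned to 0.12 per tube. The part of these cell types in the changes of the collagen genes was not tested.

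**Figure D5:**
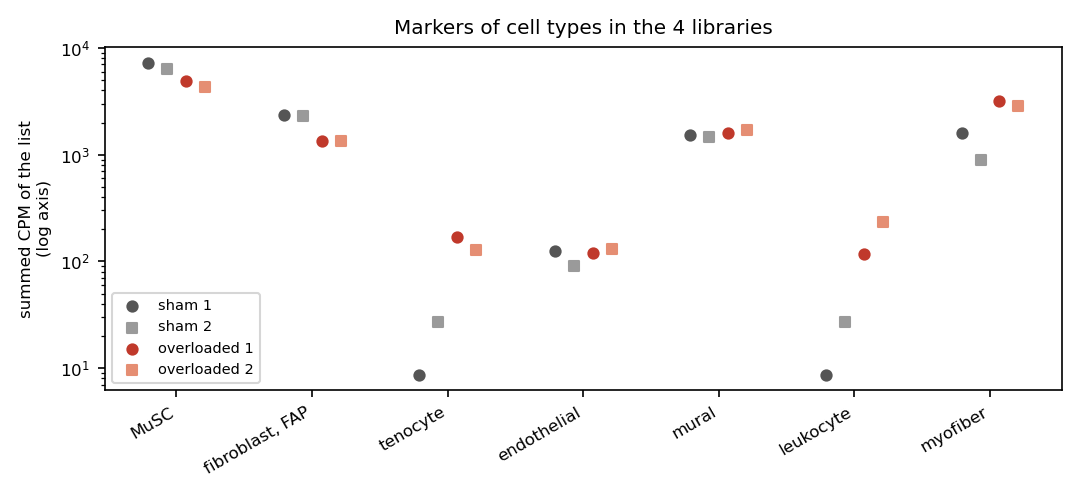
Summed level (CPM, log axis) of each described list of cell type markers in the 2 sham libraries (gray) and the 2 overloaded libraries (red). The tenocyte, leukocyte, myofiber and, by little, mural sums are higher in both overloaded libraries, the MuSC and fibroblast sums are lower in both, and the endothelial sums overlap. Gsn, Dpt and Dcn make up most of the fibroblast sum.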

How the data were processed

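UMI counts per gene and library were analysed as the authors deposited them, without normalization. Per the paper's methods and the submitters' processing notes, the authors extracted barcodes and UMIs with UMI-tools (version 1.0.0), aligned reads to GRCm38 with HISAT2 (version 2.1.0), assigned them to genes with featureCounts (version 1.6.4) and used DESeq2 (version 1.22.2). The annotation release and strand setting were not given in the sources used here. Library depth was 260488 to 483528 UMIs, and intervals and floors cover counting error only.

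Genes were filtered with filterByExpr (minimum count 10, minimum total 15), library sizes were taken over the 7228 genes kept and scaled by TMM, and both groups were fitted together with edgeR (version 4.0.16, R version 4.3.3; prior count 0.125) without covariates. Adjusted p-values are Benjamini-Hochberg values over all tested genes, called under 0.1 (common biological coefficient of variation 9.5%). The test was checked on simulated counts. Libraries of the same group differed by more than sampling noise (chi-square per degree of freedom 1.36 and 1.57) and were not duplicates. All 39 collagen genes matched GENCODE names and positions on GRCm38 by identifier, and 31 had a RefSeq promoter. Alternatives were DESeq2 (version 1.42.0), other scalings, filters, thresholds, a replicate block, thinning and each library left out. Chosen after seeing the data were the order of filtering, library size and TMM (the order used was taken from an earlier analysis of these data after 4 orders had been compared), DESeq2 on the filtered genes, and a correction for UMIs drawn repeatedly. The named genes were every tested collagen gene and untested ones with 10 or more UMIs by counts. Of each list other than the marker lists, they were the 4 called genes with the largest changes (all where fewer were called). Of the marker lists, they were the top and absent markers, and the called markers with the largest changes were not all named. Further low counts are given to account for all members. Pax7, Ly6a, Dpt, Dcn and other markers were named after their values were seen. A further marker list is not reported here. The members and lists were chosen with earlier results of these data known.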

Additional observations from a re-analysis of the deposited data

How the results depend on the processing

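Of 342 values of the tested collagen genes under alternatives (18 for each gene), 274 kept the direction and side of the threshold, 37 lost the call, 2 gained it and 29 changed direction. The median log2 fold change of the collagen genes was -0.28, and it was -0.0042 with library sizes alone, 0.68 per tube and 0.41 with the abundance offsets. The collagen genes called lower went from 8 to 5 with library sizes alone, in DESeq2 and in DESeq2 on the filtered genes, to 1 per tube and to 4 with the offsets, and were 5 to 7 over the libraries left out in turn. Those called higher went from 6 to 12 per tube, to 10 with the offsets and to 3 in DESeq2 on the filtered genes. Over all genes, 4481 were called higher and 331 lower per tube, 967 and 1215 in DESeq2, and 762 and 1049 in DESeq2 on the filtered genes, against 1868 and 1898.

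Per tube, the direction turned for Col1a1 (0.94), Col3a1 (0.42), Col4a1 (0.12), Col4a2 (0.57), Col5a1 (0.68), Col5a2 (0.89), Col6a1 (0.11), Col6a2 (0.55) and Col19a1 (0.43). With the offsets it turned for Col1a1 (0.96), Col3a1 (0.72), Col4a1 (0.035), Col4a2 (0.20), Col5a1 (0.41), Col5a2 (0.59) and Col27a1 (-0.0026). Col1a1 also turned with library sizes alone (0.26), no filter (0.068), thinning (0.027), the UMI correction (0.018) and TMM before the filter with full (0.068) or kept-gene library sizes (0.10), and Col5a2 with library sizes alone (0.20), no filter (0.0045) and TMM before the filter (0.0045 and 0.037). With libraries left out, Col1a1 ranged from -0.16 to 0.14 and Col27a1 from -0.41 to 0.60. The causes of these changes were not tested. With TMM before the filter, 2059 genes were called higher and 1697 lower (full sizes) or 2137 and 1644 (kept-gene sizes).

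Counts thinned to the smallest library moved the differences in share to -9.36 (Col4a1), 8.10 (Col4a2), 5.96 (Col5a1), 5.54 (Col5a2) and 9.65 (Col6a3) percentage points. Whether a sham and an overloaded library of the same replicate number came from the same mouse is not given in the sources used here. In its muscle sections, the paper used the contralateral sham-operated muscle as control. The correlation of deviations of same-numbered libraries was -0.035 over 7228 genes. So few libraries cannot decide whether they are paired. With the replicate number as a block, 1806 genes were called higher and 1864 lower. With 2 libraries a group, a left-out library leaves a lone sample assumed to vary like the other group, and depth limits members under 10 UMIs.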

Other observations

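Genes outside the collagen family that bind or accompany collagens were counted in the same libraries, and their counts stand beside 25.8% higher and 26.3% lower of all tested genes. Cd36, Adgrg1, Itga1, Fn1, Fbln1 and Postn passed the filter on low counts only through the overloaded libraries, so they had to be higher there to be tested. Of 10 tested receptors and other cell surface proteins that bind collagens, 3 were higher, 2 lower and 5 not called, with a median log2 fold change of 0.29. Calcr, the calcitonin receptor and a receptor for type V collagen on quiescent MuSCs, had 37 and 57 UMIs in sham and 15 and 15 in overloaded libraries. It fell by 2.60 on the log2 scale (SE 0.32, adjusted p 6.8e-06 by edgeR) and kept its direction and call under all 18 alternatives. Adgrg1, an adhesion receptor that binds type III collagen, had 1, 0, 13 and 24 UMIs, a ratio of 19.0 (95% exact interval 3.20 to 769). Cd36 had 2, 2, 24 and 37 UMIs and rose by 2.91 on the log2 scale (SE 0.54, adjusted p 3.7e-04 by edgeR). Itga1, an integrin chain that binds collagens, had 2, 4, 14 and 20 UMIs and a log2 fold change of 1.51 (adjusted p 0.026 by edgeR), with the call lost under 6 of the 18 alternatives.

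Of 7 tested basement membrane partners of type IV collagen, 1 was higher, 4 lower and 2 not called, with a median log2 fold change of -0.55. Lama2, the laminin chain of the myofiber basement membrane, had 56, 67, 68 and 49 UMIs and fell by 1.02 on the log2 scale (SE 0.25, adjusted p 0.0030 by edgeR), with the call lost only per tube. Hspg2, which encodes perlecan, had 76, 92, 69 and 108 UMIs and a log2 fold change of -0.90, which turned to 0.08 per tube. The laminin chain gene Lamb1 (25, 19, 65 and 71 UMIs) had a log2 fold change of 0.67, with the call lost in DESeq2, after thinning and without sham 2 or overloaded 1. Nid1 (nidogen, 48, 53, 65 and 69 UMIs) had one of -0.55, which lost its call under 9 of the 18 alternatives and turned to 0.41 per tube.

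Of 11 tested partners of collagen fibrils, 3 were higher, 5 lower and 3 not called, with a median log2 fold change of -0.23. Postn (periostin) had 0 UMIs in both sham libraries and 59 and 41 in the overloaded libraries, which is 17.1-fold higher when sham is set to a floor of 3 counts over both libraries. That floor covers counting error in the sham group only. Fn1 (fibronectin) had 1 and 3 UMIs in sham and 94 and 99 in overloaded libraries and rose by 4.58 on the log2 scale (SE 0.42, adjusted p 4.6e-07 by edgeR). Fbln1 had 1, 0, 18 and 20 UMIs, a ratio of 19.5 (95% exact interval 3.29 to 790). Thbs2 (41, 45, 19 and 24 UMIs) fell by 1.96 on the log2 scale (SE 0.27, adjusted p 2.3e-05 by edgeR). Fbln1 and Calcr also stand in marker lists of fibroblasts or MuSCs.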
